A study of Mus musculus with 16 samples.

Results

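The genes described here encode the sensors, transcription factors, chaperones and degradation machinery of the endoplasmic reticulum (ER) stress response in mouse pancreatic islets. They were chosen by name, as a list of 37 symbols, and the symbols were looked up in the count table. Of the 37, 36 had a row among the 52636 genes of the table, and all 36 were among the 18587 genes tested; no gene in the annotation carries the symbol Crelf2, which was left out.

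RNA was sequenced from islets isolated from 12-week-old male mice (C57BL/6JRj per the labels, C57BL/6NRj per the study's methods) and cultured for 10 days, 500 islets per library. The 4 conditions were control (no addition), IL-1β (50 pg/ml recombinant mouse IL-1β), butyrate (0.2 mM sodium butyrate) and IL-1β + butyrate (both at those doses). All 4 conditions shared the RPMI medium with human serum and penicillin/streptomycin, and a medium change on day 5. Each condition had 4 libraries, from 4 independent experiments, which makes 16 libraries in all. IL-1β is an inflammatory cytokine that impairs beta cells, and butyrate, a fermentation product of gut microbes, inhibits histone deacetylases. The comparisons ask how each agent, alone and in the presence of the other, changed the mRNA levels of these genes.

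Proteins destined for secretion, insulin above all in beta cells, fold in the ER with the help of chaperones and disulfide isomerases, and those that fail to fold are exported and degraded. When unfolded protein accumulates, the sensors IRE1α (encoded by *Ern1*), ATF6 and PERK (*Eif2ak3*) activate the unfolded protein response. IRE1α splices *Xbp1* mRNA, cleaved ATF6 enters the nucleus, and PERK phosphorylates eIF2α and thereby favours translation of ATF4, which induces CHOP (*Ddit3*). XBP1 and ATF6 raise chaperone and degradation genes through the ER stress element (ERSE), whereas ATF4 and CHOP raise amino acid and stress genes.

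The ERSE was searched in the promoters because it is the sequence these genes are best known to share. RefSeq promoters (GRCm38.p6, 250 bases before to 50 bases after the start site) were at hand for 31 of the 36 genes, and *Hyou1*, *Manf*, *Atf6*, *Ppp1r15b* and *Ostc* had none in the table. The letters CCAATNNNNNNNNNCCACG, searched on both strands, occurred in the promoters of 9 of the 31 genes (29.0%) and in 39 of all 32851 promoters (0.119%). The matched letters of the 10 sites, read on the strand of the motif with its fixed bases in capitals, were as follows.
Hspa5: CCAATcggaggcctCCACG
Calr: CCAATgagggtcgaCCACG
Derl3: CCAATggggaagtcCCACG
Hsp90b1 (distal): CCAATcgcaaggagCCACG
Hsp90b1 (proximal): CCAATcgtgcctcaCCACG
Canx: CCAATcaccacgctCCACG
Pdia6: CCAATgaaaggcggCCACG
Dnajc3: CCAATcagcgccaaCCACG
Creld2: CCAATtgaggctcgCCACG
Syvn1: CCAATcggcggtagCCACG
The start of these sites lay between 212 and 44 bases before the start site. A related element, ERSE-II (ATTGGNCCACG), occurred in *Herpud1* and *Dnajb11*, that is in 2 of the 31 genes (6.45%) against 12 of all promoters (0.0365%), and no ERSE-II match overlapped an ERSE match. The unfolded protein response element core TGACGTGG was found in 0 of the 31 genes against 222 of all promoters (0.676%). The C/EBP-ATF response element TGATGNAAT, which ATF4 binds, was found in 1 gene, *Nupr1* (3.23%), against 317 of all promoters (0.965%). These matches describe letters in a window and not binding.

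The promoters of 3 of these genes are shown in full up to the base before the start site, since they belong to genes that share the element and differed in response: *Hspa5* and *Derl3*, lower with butyrate, and *Canx*, higher with butyrate. Capitals mark the fixed bases of the ERSE, which lies on the reverse strand in *Derl3*.
Hspa5, chr2:34771840-34772089, + strand: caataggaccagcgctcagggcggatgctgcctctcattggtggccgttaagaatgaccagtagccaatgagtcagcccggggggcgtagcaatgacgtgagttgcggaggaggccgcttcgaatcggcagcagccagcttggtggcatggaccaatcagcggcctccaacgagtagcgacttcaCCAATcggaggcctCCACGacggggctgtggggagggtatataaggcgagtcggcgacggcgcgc
Derl3, chr10:75893148-75893397, + strand: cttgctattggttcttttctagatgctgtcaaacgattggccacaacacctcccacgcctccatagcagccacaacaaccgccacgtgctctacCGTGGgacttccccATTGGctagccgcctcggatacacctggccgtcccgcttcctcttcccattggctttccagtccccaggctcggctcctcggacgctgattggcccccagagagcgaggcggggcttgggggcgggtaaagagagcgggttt
Canx, chr11:50325674-50325923, - strand: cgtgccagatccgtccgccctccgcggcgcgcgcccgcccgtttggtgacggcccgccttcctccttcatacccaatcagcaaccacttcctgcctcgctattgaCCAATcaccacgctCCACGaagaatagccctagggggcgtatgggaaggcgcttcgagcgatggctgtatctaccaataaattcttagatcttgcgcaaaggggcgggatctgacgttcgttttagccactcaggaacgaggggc

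Libraries held between 18635943 and 25955943 counts (median 22184715). Values are given as CPM, counts scaled to a common library size with the trimmed mean of M-values (TMM). A gene was called changed at an adjusted p below 0.01 in edgeR's quasi-likelihood test with Benjamini-Hochberg adjustment over all 18587 genes, and every adjusted p below is from this test. Changes are log2 fold changes ± SE, with n = 4 libraries per condition. The tissue label was checked by summed CPM of marker lists: the 8 beta cell markers summed to 214096–236954 CPM in control and the 12 acinar markers to 25.8–39.6 CPM. Beta cell markers summed to 138050–179735 CPM with IL-1β, 138351–170461 with IL-1β + butyrate and 222095–261625 with butyrate. Most of this sum was *Ins2* and *Ins1* (means 145137.5 and 51507.8 CPM in control). Against control, 6 of the 8 fell and 2 rose with IL-1β, and likewise with both agents. The 2 were *Iapp* (mean 21970 CPM in control, 27034 with IL-1β and 30749 with both agents) and *Pcsk1* (843, 1384 and 1173). The 10 macrophage markers summed to 131–143 CPM in control, 188–237 with IL-1β, 102–142 with IL-1β + butyrate and 86.8–107 with butyrate. Most of this sum was *C1qa* (mean 111 of 138 CPM in control), which fell with IL-1β, with butyrate and with both agents, whereas the other 9 macrophage markers rose with IL-1β and 7 of the 10 rose with both agents against control. The 6 duct markers summed to 341–368 CPM in control, 502–600 with IL-1β, 517–815 with IL-1β + butyrate and 328–368 with butyrate. The 4 delta and PP cell markers summed to 3063–4042, 2819–3629, 3976–5071 and 4636–5522 CPM in that order. Most of the rise in the duct sum was *Spp1* (mean 11.9 CPM in control, 158 with IL-1β and 348 with both agents). *Krt7*, most of the control sum, averaged 336, 394 and 338.5 CPM in those conditions. Of the 5 duct markers tested, 3 rose with IL-1β and 2 with both agents, and 0 fell. The part of these shifts in the results below was not tested, and in such bulk samples fewer cells of a type and less RNA per cell cannot be told apart.

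IL-1β + butyrate against control gave a one-sided pattern: 14 of the 36 genes were lower and 2 were higher, against 14.8% lower and 15.8% higher of all genes tested. All 11 chaperone and co-factor genes were among the 16, with 10 lower and only *Canx* higher. The other lower genes were *Pdia4*, *Syvn1*, *Derl3* and *Sec61b*, and the other higher gene was *Ern1*. The median change over the 36 genes was −0.13 on the log2 scale, against −0.0027 over all genes tested. Of the 16 calls, 13 held when each library was left out in turn, and scaling by library size alone gave 5 higher and 13 lower.

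IL-1β against control lowered 8 of the 36 genes and raised 1, against 6.59% lower and 11.2% higher of all genes tested. The genes that fell were *Dnajb9*, *Sel1l*, *Syvn1*, *Atf6*, *Atf4*, *Ddit3*, *Chac1* and *Asns*, and the gene that rose was *Edem1*. The median change over the 36 genes was −0.14 on the log2 scale, against −0.0252 over all genes. These counts rested on single libraries: without IL-1β replicate 3 there were 3 lower and 1 higher, and without IL-1β replicate 4 there were 2 lower and 1 higher. They also moved with the scaling, from 4 lower with library size alone to 15 lower with upper-quartile scaling, each with 1 higher.

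Butyrate against control lowered 5 genes (*Hspa5*, *Hsp90b1*, *Sdf2l1*, *Manf* and *Derl3*) and raised 4 (*Canx*, *Ern1*, *Chac1* and *Wfs1*). These were 13.9% and 11.1% of the 36 genes, close to the 11.4% lower and 8.53% higher of all genes tested. The median change over the 36 genes was −0.066 on the log2 scale, against 0.0065 over all genes. Here the split between directions moved with the scaling, to 8 higher and 4 lower with upper-quartile scaling and to 4 higher and 11 lower with library size alone. The count fell to 5 genes (3 higher, 2 lower) without butyrate replicate 2, and rose to 14 without IL-1β replicate 1 and to 15 without IL-1β replicate 4, libraries of neither condition compared.

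Butyrate added to IL-1β, compared to IL-1β alone, raised 10 genes and lowered 6, against 8.41% higher and 11.1% lower of all genes tested. The genes that rose were *Canx*, *P4hb*, *Herpud1*, *Ern1*, *Atf6*, *Ddit3*, *Trib3*, *Chac1*, *Wfs1* and *Ssr1*, and those that fell were *Hspa5*, *Hsp90b1*, *Dnajb11*, *Sdf2l1*, *Manf* and *Derl3*. This balance of directions depended on single libraries. Without IL-1β replicate 4 it was 3 higher and 12 lower, without IL-1β replicate 3 it was 4 higher and 9 lower, and without IL-1β + butyrate replicate 2 it was 5 higher and 7 lower. The count fell to 10 genes (5 higher, 5 lower) without IL-1β + butyrate replicate 1 and to 9 (4 higher, 5 lower) without its replicate 3, and upper-quartile scaling gave 11 higher and 4 lower. The median change over the 36 genes was −0.018 on the log2 scale, against 0.0121 over all genes.

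IL-1β added to butyrate, compared to butyrate alone, lowered 6 genes (*Pdia6*, *Syvn1*, *Atf6*, *Chac1*, *Asns* and *Wfs1*) and raised 1 (*Edem1*), against 4.86% lower and 9.92% higher of all genes tested. The median change was −0.12 on the log2 scale over the 36 genes and −0.0094 over all genes. With library size alone the count was 1 higher and 1 lower, and with upper-quartile scaling it was 0 higher and 13 lower. The count rose to 12 without IL-1β replicate 4 and fell to 4 without control replicate 3, to 3 without IL-1β + butyrate replicate 3 or replicate 4, to 4 without butyrate replicate 3 and to 3 without butyrate replicate 4.

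**Figure D1:**
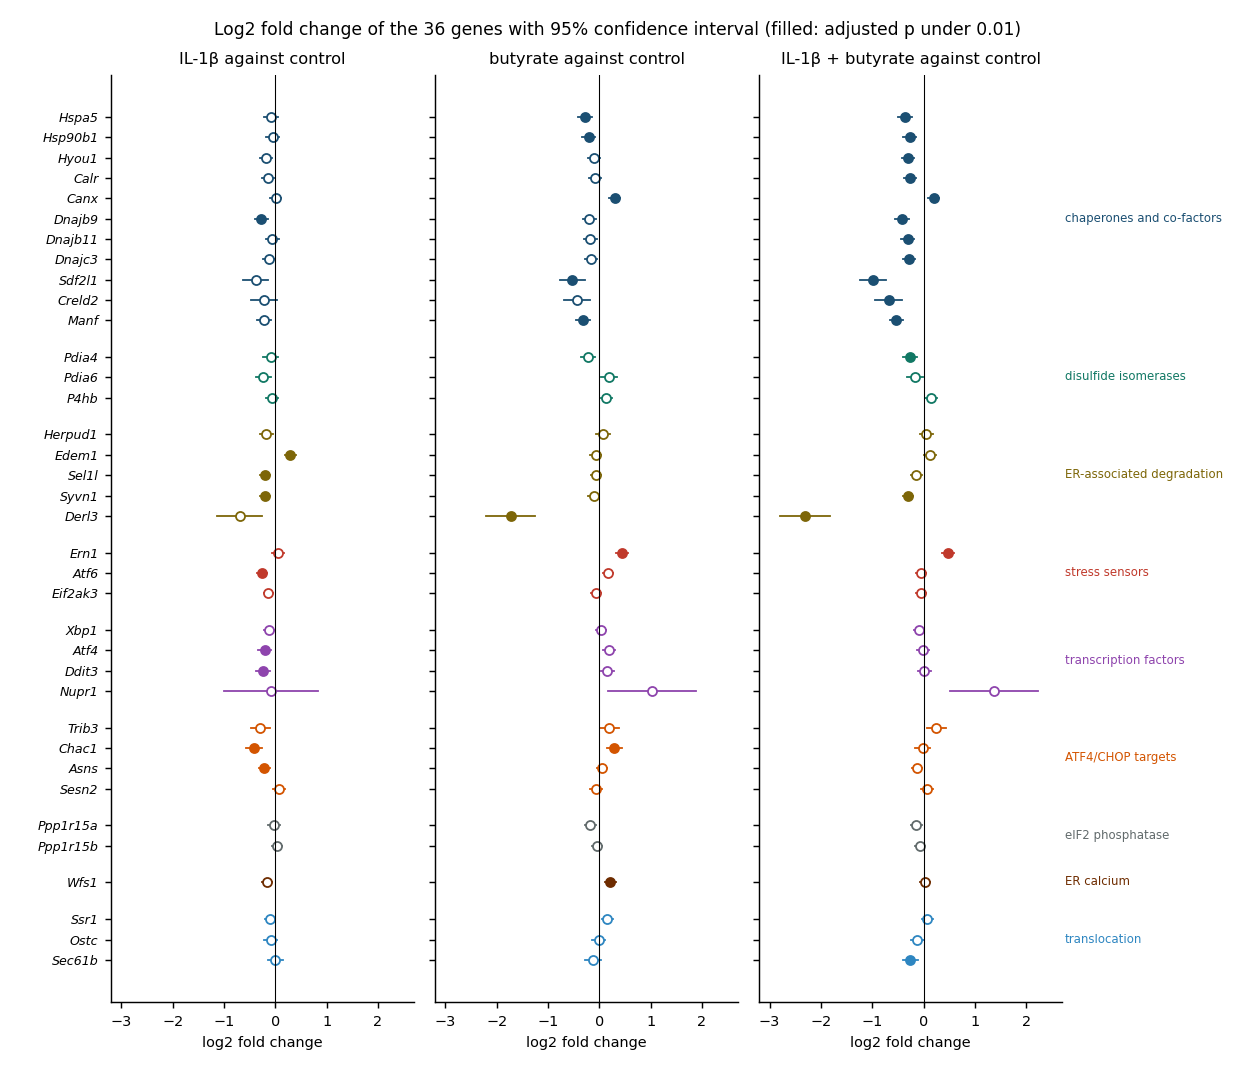
Log2 fold change (x axis) of each of the 36 genes (y axis, coloured and spaced by role) in the 3 comparisons with control; lines are 95% confidence intervals and filled points are genes called at an adjusted p below 0.01. With both agents all 11 chaperone and co-factor genes are filled, 10 of them to the left of 0, and *Derl3* lies farthest to the left in each panel.

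*Hspa5* encodes BiP, the main chaperone of the ER, and had the highest level per kilobase of exonic length of the 36 genes in control (736 CPM per kb). Its CPM were 2905, 3361, 3096 and 3096 in control, 3206, 3191, 2794 and 2544 with IL-1β, 2411, 2620, 2357 and 2262 with IL-1β + butyrate, and 2458, 2429, 2772 and 2607 with butyrate. Every library with butyrate, alone or combined, lay below every control library, whereas IL-1β libraries overlapped control. The change was −0.28 ± 0.067 with butyrate (adjusted p = 0.0022), −0.28 ± 0.067 for butyrate added to IL-1β (adjusted p = 0.0021), and −0.37 ± 0.067 with both agents against control (adjusted p = 6.8e-05). With IL-1β alone it was −0.09 ± 0.067 (adjusted p = 0.38). The call for butyrate was lost without control replicate 2 (adjusted p = 0.0126) and without butyrate replicate 2 (adjusted p = 0.012), and the call for butyrate added to IL-1β was lost without IL-1β replicate 2 (adjusted p = 0.0101).

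*Hsp90b1*, the ER member of the HSP90 family, showed changes of −0.21 ± 0.060 with butyrate (adjusted p = 0.0088), −0.21 ± 0.060 for butyrate added to IL-1β (adjusted p = 0.0078) and −0.27 ± 0.060 with both agents against control (adjusted p = 0.00061). Its call with butyrate was lost in 9 of the 16 fits that each left out 1 library, including every fit without a control or a butyrate library, with the highest adjusted p of 0.0448 without control replicate 2, and with upper-quartile scaling (adjusted p = 0.0313). Its call for butyrate added to IL-1β was lost in 8 such fits, with adjusted p-values up to 0.0281, reached without IL-1β replicate 2, and with upper-quartile scaling (0.0268) or only the conditions compared in the fit (0.0331). The call with both agents held in every alternative.

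The co-factors with the largest decreases among the chaperone group were *Sdf2l1* and *Creld2*, small ER proteins whose mRNAs rise strongly in ER stress, and *Manf*, a secreted ER stress protein that supports beta cell survival. *Sdf2l1* had CPM of 259, 326, 288 and 293 in control, 259, 249, 196 and 189 with IL-1β, 153, 148, 147 and 141 with IL-1β + butyrate, and 188, 176, 245 and 202 with butyrate. The combined condition lay below all other libraries and varied least, and butyrate libraries lay below all control libraries. *Sdf2l1* fell by 0.98 ± 0.12 on the log2 scale with both agents against control (1.98-fold lower, adjusted p = 9.7e-06), by 0.60 ± 0.12 when butyrate was added to IL-1β (adjusted p = 0.0015), and by 0.53 ± 0.12 with butyrate alone (adjusted p = 0.0034). The last call was lost without control replicate 2 (adjusted p = 0.0121) and without butyrate replicate 1 (0.0125), replicate 2 (0.0112) or replicate 4 (0.0107), and also with a replicate block (0.0114) and with only the conditions compared in the fit (0.014).

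*Manf* had CPM of 428, 477, 445 and 443 in control, 409, 425, 371 and 338 with IL-1β, 300, 339, 305 and 301 with IL-1β + butyrate, and 350, 328, 397 and 363 with butyrate. All control libraries lay above all libraries of the other 3 conditions. *Manf* fell by 0.53 ± 0.065 on the log2 scale with both agents (adjusted p = 3.7e-07), by 0.32 ± 0.065 with butyrate (adjusted p = 0.000498) and by 0.31 ± 0.065 when butyrate was added to IL-1β (adjusted p = 0.00071), calls that held in every alternative tried. With IL-1β alone the change was −0.22 ± 0.064 (adjusted p = 0.013). *Creld2* fell by 0.68 ± 0.12 on the log2 scale with both agents (adjusted p = 0.00037), and its changes of −0.43 ± 0.12 with butyrate and −0.46 ± 0.12 for butyrate added to IL-1β had adjusted p-values of 0.014 and 0.0105.

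The J-domain proteins hand substrates to BiP. *Dnajb9* (ERdj4) had CPM of 713, 715, 692 and 676 in control, 656, 597, 561 and 497 with IL-1β, 513, 566, 521 and 485 with both agents, and 626, 565, 648 and 597 with butyrate, so that control lay above every other library. It fell by 0.27 ± 0.064 on the log2 scale with IL-1β (adjusted p = 0.0018), a call lost without IL-1β replicate 4 (adjusted p = 0.0109), and by 0.42 ± 0.064 with both agents (adjusted p = 6.4e-06). *Dnajb11* (ERdj3) fell by 0.25 ± 0.061 when butyrate was added to IL-1β (adjusted p = 0.0031), lost without IL-1β replicate 2 (adjusted p = 0.0149), with upper-quartile scaling (0.0115) or only the conditions compared (0.0122), and by 0.31 ± 0.061 with both agents (adjusted p = 0.00022). *Dnajc3*, which also inhibits PERK, fell by 0.28 ± 0.059 with both agents (adjusted p = 0.00036). *Hyou1*, a nucleotide exchange factor of BiP, fell by 0.31 ± 0.060 with both agents (adjusted p = 0.00015), and *Calr*, a soluble lectin chaperone, by 0.26 ± 0.056 (adjusted p = 0.00051). None of the last 3 genes was called in the other comparisons.

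*Canx*, the membrane-bound lectin chaperone calnexin and the partner of *Calr* in glycoprotein folding, moved the other way. Its CPM were 714, 716, 692 and 679 in control, 764, 715, 699 and 641 with IL-1β, 816, 865, 791 and 751 with IL-1β + butyrate, and 894, 861, 872 and 811 with butyrate. Every library with butyrate lay above every control library. *Canx* rose by 0.30 ± 0.052 with butyrate (1.23-fold, adjusted p = 7.9e-05), a call held in every alternative, by 0.19 ± 0.052 when butyrate was added to IL-1β (adjusted p = 0.0057) and by 0.20 ± 0.052 with both agents (adjusted p = 0.0025). The call for butyrate added to IL-1β was lost without IL-1β replicate 3 (adjusted p = 0.0238) or 4 (0.0427) and without IL-1β + butyrate replicate 1 (0.0244), 2 (0.0449) or 3 (0.0171), and with only the conditions compared (0.0174). The call with both agents was lost without control replicate 3 (adjusted p = 0.0105) or 4 (0.0124) and without IL-1β + butyrate replicate 2 (0.016).

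The 3 disulfide isomerases did not move together. *Pdia4* fell by 0.27 ± 0.067 on the log2 scale with both agents (adjusted p = 0.0023), lost without control replicate 2 (adjusted p = 0.0123) and without IL-1β + butyrate replicate 4 (0.0101). *Pdia6*, which limits IRE1α signalling, had CPM of 1018, 1161, 1070 and 1064 in control, 1008, 1015, 863 and 785 with IL-1β, 981, 1070, 916 and 867 with both agents, and 1242, 1205, 1291 and 1176 with butyrate. Butyrate libraries lay above all libraries of the other conditions, and *Pdia6* was lower by 0.36 ± 0.073 on the log2 scale with both agents than with butyrate alone (adjusted p = 0.00078), in every alternative. *P4hb*, the founding isomerase, rose by 0.21 ± 0.055 when butyrate was added to IL-1β (adjusted p = 0.0049), a call lost without IL-1β replicate 3 (adjusted p = 0.0253) or 4 (0.0381) and without IL-1β + butyrate replicate 2 (0.0422), 3 (0.0185) or 4 (0.0124), and with only the conditions compared (0.0151).

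Among the 5 genes of ER-associated degradation, *Derl3* showed the largest fitted change of the 36 genes in each of the 3 comparisons with control. *Derl3* encodes a derlin, a membrane protein of the retrotranslocation channel, and is known for high expression in secretory cells such as acinar and plasma cells. Its CPM were 53.5, 75.0, 75.7 and 72.3 in control, 44.3, 46.0, 43.8 and 37.0 with IL-1β, 11.7, 15.7, 15.1 and 13.4 with IL-1β + butyrate, and 14.8, 13.8, 32.0 and 23.2 with butyrate. Control lay above IL-1β, and IL-1β above both butyrate conditions, with no overlap, while the 2 butyrate conditions overlapped. *Derl3* fell by 1.73 ± 0.22 on the log2 scale with butyrate (3.32-fold lower, adjusted p = 5.4e-05), by 1.61 ± 0.23 when butyrate was added to IL-1β (adjusted p = 0.00017) and by 2.31 ± 0.23 with both agents (4.95-fold lower, adjusted p = 2.7e-06), each in every alternative. With IL-1β alone the change was −0.70 ± 0.20 (adjusted p = 0.022). The 12 acinar markers summed to 25.8–39.6 CPM in control, 29.9–36.7 with IL-1β, 19.8–28.5 with both agents and 21.5–30.0 with butyrate, and the 6 plasma and B cell markers to 4.39–5.45, 4.86–8.23, 7.59–10.3 and 5.58–6.90 CPM in that order. Most of the acinar sum was *Cela1* (mean 21.97 of 31.2 CPM in control and 8.06 with both agents), while *Ctrb1* averaged 0.589 CPM in control, 5.66 with IL-1β and 1.48 with both agents. Over the 7 acinar markers tested, the median change against control was 2.05 on the log2 scale for IL-1β and 0.80 for both agents. Most of the plasma and B cell sum was *Sdc1* (mean 2.97 CPM in control and 6.89 with both agents). *Cd79a*, *Jchain* and *Mzb1* averaged 1.115, 0.23 and 0.415 CPM in control and 1.165, 0.247 and 0.48 with both agents. The part of other cell types in the *Derl3* values was not tested.

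*Edem1*, a lectin that directs misfolded glycoproteins to degradation, was the one gene of the 36 that rose with IL-1β. Its CPM were 251, 261, 255 and 259 in control, 344, 328, 298 and 288 with IL-1β, 278, 300, 271 and 273 with both agents, and 241, 226, 262 and 247 with butyrate. All IL-1β libraries, with or without butyrate, lay above all libraries without IL-1β. *Edem1* rose by 0.29 ± 0.054 with IL-1β (1.22-fold, adjusted p = 0.00013), in every alternative, and by 0.20 ± 0.054 when IL-1β was added to butyrate (adjusted p = 0.0076). The second call was lost in 9 of the 16 fits that left out 1 library, with adjusted p-values up to 0.0477 without butyrate replicate 2, and with upper-quartile scaling (0.0194).

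*Sel1l* and *Syvn1* encode the adaptor and the ubiquitin ligase (HRD1) of the main degradation complex. With IL-1β *Sel1l* fell by 0.21 ± 0.049 (adjusted p = 0.002) and *Syvn1* by 0.20 ± 0.049 (adjusted p = 0.0022). Both calls were lost without IL-1β replicate 3 (adjusted p = 0.0114 and 0.0185) and replicate 4 (0.0143 and 0.0127), and with library size alone (0.0173 and 0.0195). *Syvn1* also fell by 0.31 ± 0.049 with both agents against control (adjusted p = 1.1e-05), and by 0.19 ± 0.049 when IL-1β was added to butyrate (adjusted p = 0.0043), the latter lost in 5 of the 16 fits that left out 1 library, with library size alone (adjusted p = 0.131) and without the filter on low counts (0.0108). *Herpud1*, which recruits ubiquilin to that complex, rose by 0.23 ± 0.064 when butyrate was added to IL-1β (adjusted p = 0.008), a call lost in 10 of the 16, with adjusted p = 0.0525 without IL-1β replicate 4. *Syvn1* shares exonic bases with *Mrpl49* on the opposite strand and *Manf* with *Dcaf1*, and the strand setting of the counting was not given in the sources used here.

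**Figure D2:**
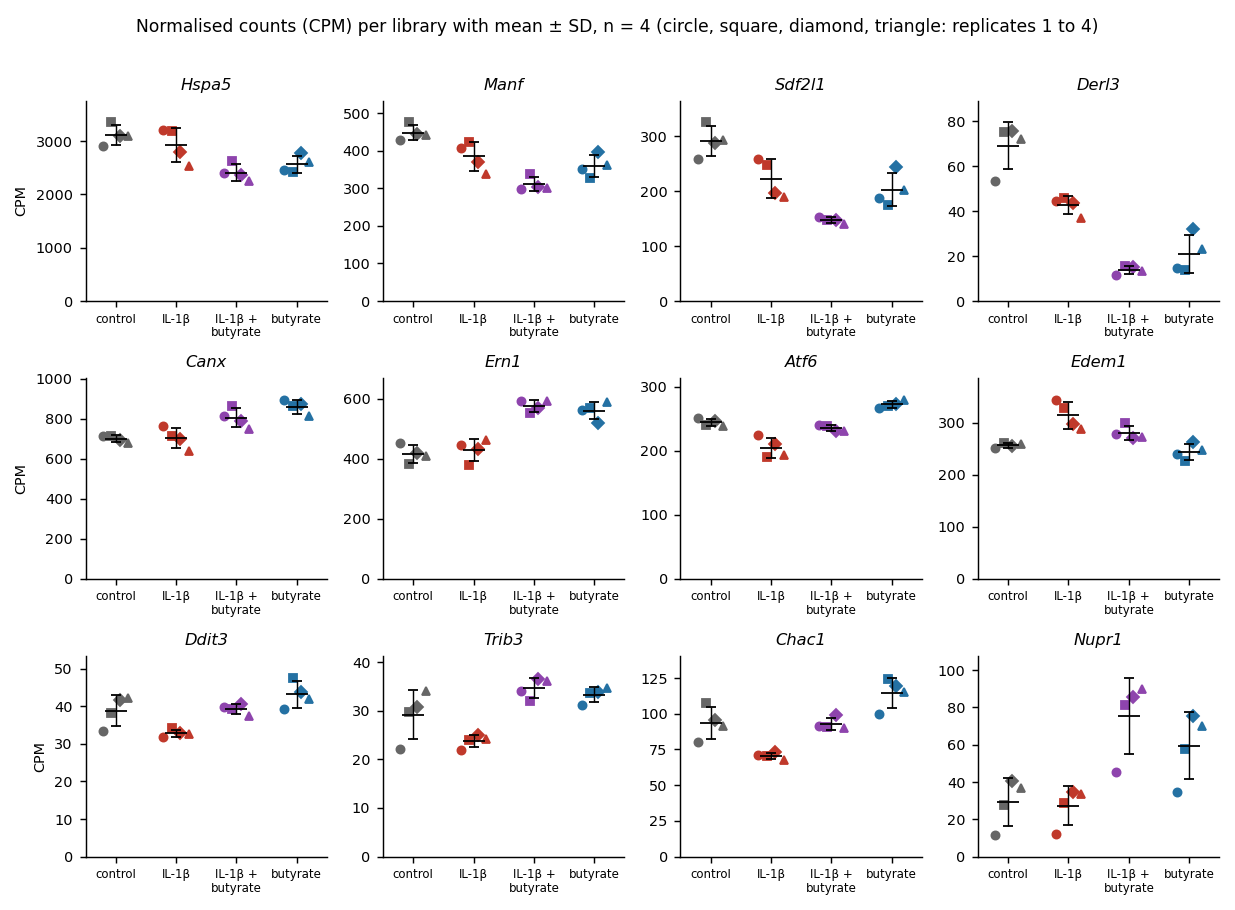
CPM (y axis, from 0) of 12 of the genes in each library, by condition (x axis); symbols mark replicates 1 to 4 and black bars the mean ± SD of 4 libraries. *Derl3*, *Sdf2l1*, *Manf* and *Hspa5* are lowest with IL-1β + butyrate, *Canx* and *Ern1* are higher in both butyrate conditions, *Edem1* is highest with IL-1β, and replicate 1 is the lowest *Nupr1* library of every condition.

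The 3 sensors behaved differently from each other. *Ern1* (IRE1α) had CPM of 453, 382, 420 and 409 in control, 446, 378, 432 and 463 with IL-1β, 594, 553, 568 and 593 with both agents, and 563, 570, 521 and 590 with butyrate. All libraries with butyrate lay above all libraries without it. *Ern1* rose by 0.43 ± 0.058 with butyrate (1.35-fold, adjusted p = 2.0e-06), by 0.42 ± 0.058 when butyrate was added to IL-1β (1.34-fold, adjusted p = 2.6e-06) and by 0.47 ± 0.058 with both agents against control (adjusted p = 1.8e-07), in every alternative. Its change with IL-1β was 0.05 ± 0.058 (adjusted p = 0.6).

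*Atf6* had CPM of 252, 241, 246 and 239 in control, 225, 191, 211 and 194 with IL-1β, 241, 239, 231 and 231 with both agents, and 268, 271, 273 and 280 with butyrate. IL-1β libraries were the lowest and butyrate libraries the highest, while the combination overlapped control. *Atf6* fell by 0.25 ± 0.047 with IL-1β (adjusted p = 0.00012), in every alternative, and was lower by 0.21 ± 0.047 with both agents than with butyrate (adjusted p = 0.001). It rose by 0.20 ± 0.047 when butyrate was added to IL-1β (adjusted p = 0.0016), lost without IL-1β replicate 4 (adjusted p = 0.0123) and without IL-1β + butyrate replicate 1 (0.0101), and its change with butyrate alone was 0.16 ± 0.047 (adjusted p = 0.0103). With library size alone the call for IL-1β added to butyrate was lost (adjusted p = 0.0521).

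*Eif2ak3* (PERK) had CPM of 117, 112, 107 and 109 in control, 107, 101, 101 and 96.5 with IL-1β, 104, 111, 107 and 110 with both agents, and 106, 101, 106 and 113 with butyrate. It was called in none of the comparisons, and its change with IL-1β was −0.14 ± 0.046 (adjusted p = 0.024). The ranges of all conditions lay close together, with every IL-1β library below every control library by a narrow margin.

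Of the transcription factors, *Xbp1* had CPM of 366, 364, 348 and 349 in control, 343, 346, 314 and 306 with IL-1β, 326, 344, 342 and 333 with both agents, and 381, 354, 370 and 346 with butyrate. It was called in none of the comparisons, with changes between −0.13 ± 0.047 (IL-1β, adjusted p = 0.047) and 0.04 ± 0.047 (butyrate added to IL-1β, adjusted p = 0.58). Counts per gene do not show how much of the *Xbp1* mRNA was spliced.

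*Atf4* had CPM of 310, 395, 379 and 364 in control, 309, 329, 325 and 288 with IL-1β, 348, 373, 365 and 349 with both agents, and 385, 419, 432 and 412 with butyrate. IL-1β libraries were the lowest, apart from an overlap with control replicate 1. *Atf4* fell by 0.21 ± 0.059 with IL-1β (adjusted p = 0.0085), a call lost in 12 of the 16 fits that left out 1 library and at its weakest without IL-1β replicate 4 (adjusted p = 0.0593). It was also lost with RLE scaling, the scaling DESeq2 uses (adjusted p = 0.0101), with library size alone (0.0591) and with only the conditions compared (0.0393). ATF4 protein is set largely by translation, which these counts do not measure.

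*Ddit3* (CHOP) had CPM of 33.4, 38.3, 41.7 and 42.2 in control, 31.7, 34.2, 32.8 and 32.7 with IL-1β, 39.9, 39.4, 40.6 and 37.4 with both agents, and 39.4, 47.7, 43.9 and 41.9 with butyrate. IL-1β libraries were low and overlapped only control replicate 1. *Ddit3* fell by 0.24 ± 0.065 with IL-1β (adjusted p = 0.0051) and rose by 0.26 ± 0.065 when butyrate was added to IL-1β (adjusted p = 0.0029). The first call was lost in 9 of the 16 fits that left out 1 library, with adjusted p-values up to 0.032 without control replicate 4, and the second in 6, up to 0.0202 without IL-1β + butyrate replicate 3. The first was also lost with library size alone (adjusted p = 0.0612) and with only the conditions compared (0.0173). *Ddit3* shares exonic bases with *Mars* on the opposite strand, which has more counts.

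*Nupr1*, a stress-induced chromatin protein, had the largest SE of the 36 genes. Its CPM were 11.4, 27.9, 40.7 and 36.9 in control, 12.0, 29.0, 34.9 and 33.5 with IL-1β, 45.4, 81.2, 85.7 and 90.0 with both agents, and 34.8, 57.6, 75.3 and 70.0 with butyrate. Replicate 1 was the lowest library of each condition, and every IL-1β + butyrate library lay above every control and IL-1β library. The change was 1.45 ± 0.40 for butyrate added to IL-1β (adjusted p = 0.015), 1.37 ± 0.39 with both agents against control (adjusted p = 0.014) and 1.02 ± 0.40 with butyrate alone (adjusted p = 0.073). None of the 3 passed the threshold in this fit, and they did so in 3, 4 and 1 of the 23 alternatives in that order, the replicate block among them in each.

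*Chac1*, a glutathione-degrading enzyme induced by ATF4 and CHOP, changed in 4 of the comparisons. Its CPM were 80.5, 108, 95.5 and 91.3 in control, 70.8, 70.1, 73.3 and 67.5 with IL-1β, 91.5, 90.9, 99.2 and 90.2 with both agents, and 99.6, 124, 120 and 115 with butyrate. IL-1β libraries lay below all others, and the combination lay within the control range. *Chac1* fell by 0.41 ± 0.072 with IL-1β (1.33-fold lower, adjusted p = 0.00012) and rose by 0.40 ± 0.072 when butyrate was added to IL-1β (1.32-fold, adjusted p = 0.00018), both in every alternative. It rose by 0.29 ± 0.070 with butyrate (adjusted p = 0.0031), lost without control replicate 4 (adjusted p = 0.0115) and without butyrate replicate 2 (0.0155) or 3 (0.0129), and with only the conditions compared (0.052). It was lower by 0.30 ± 0.070 with both agents than with butyrate (adjusted p = 0.0027), lost in 5 of the 16 fits that left out 1 library, with adjusted p-values up to 0.0138, and with library size alone (0.0456).

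*Trib3*, a pseudokinase that restrains ATF4 signalling, had CPM of 22.03, 29.8, 30.9 and 34.0 in control, 21.9, 24.0, 25.0 and 24.3 with IL-1β, 34.2, 32.0, 36.6 and 36.2 with both agents, and 31.1, 33.7, 33.9 and 34.6 with butyrate. It rose by 0.54 ± 0.090 when butyrate was added to IL-1β (1.46-fold, adjusted p = 9.4e-05), in every alternative and with no overlap between the 2 conditions. *Asns*, asparagine synthetase, fell by 0.22 ± 0.049 with IL-1β (adjusted p = 0.0014), lost without IL-1β replicate 3 (adjusted p = 0.0111) or 4 (0.0126). It was lower by 0.18 ± 0.049 with both agents than with butyrate (adjusted p = 0.0074), lost in 8 of the 16 fits that left out 1 library, with adjusted p-values up to 0.0319, with library size alone (0.144) and without the filter on low counts (0.018). *Sesn2*, a stress-induced regulator of growth signalling, and the eIF2α phosphatase subunits *Ppp1r15a* and *Ppp1r15b* were called in none of the comparisons.

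*Wfs1* encodes wolframin, an ER membrane protein needed by beta cells. Its CPM were 283, 256, 264 and 263 in control, 263, 221, 234 and 233 with IL-1β, 282, 259, 276 and 271 with both agents, and 307, 305, 296 and 328 with butyrate, so that butyrate lay above every other library. *Wfs1* rose by 0.21 ± 0.051 with butyrate (adjusted p = 0.002), lost without control replicate 2 (adjusted p = 0.0127) and butyrate replicate 4 (0.0142), and by 0.19 ± 0.051 when butyrate was added to IL-1β (adjusted p = 0.0048). It was lower by 0.18 ± 0.051 with both agents than with butyrate (adjusted p = 0.0085). These last 2 calls were lost in 6 and 9 of the 16 fits that left out 1 library, with adjusted p-values up to 0.0293 and 0.0496. The first of them was also lost with only the conditions compared (adjusted p = 0.0106), and the second with library size alone (0.252) and without the filter on low counts (0.0135).

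Of the translocation genes, *Ssr1*, a subunit of the translocon-associated complex, rose by 0.18 ± 0.049 when butyrate was added to IL-1β (adjusted p = 0.006), lost in 6 of the 16 fits that left out 1 library (up to adjusted p = 0.0395 without IL-1β + butyrate replicate 2) and with only the conditions compared (0.0185). *Sec61b*, a translocon subunit, fell by 0.26 ± 0.071 with both agents against control (adjusted p = 0.0056), lost without control replicate 2 (adjusted p = 0.0274) and without IL-1β + butyrate replicate 1 (0.0123), 3 (0.0127) or 4 (0.0214), and with library size alone (0.0156). *Ostc*, an oligosaccharyltransferase subunit, was called in none of the comparisons. The 7 genes called in none were *Eif2ak3*, *Xbp1*, *Nupr1*, *Sesn2*, *Ppp1r15a*, *Ppp1r15b* and *Ostc*.

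Summed by role, the 11 chaperone and co-factor genes gave 11158 ± 422 CPM in control (mean ± SD, n = 4), 10219 ± 1050 with IL-1β, 9933 ± 457 with butyrate and 9015 ± 466 with both agents. The combination thus stood at 80.8% of control, with every library (8527–9630 CPM) below every control library (10835–11773 CPM). The 3 sensors summed to 772 ± 36.7 CPM in control, 736 ± 46.4 with IL-1β, 941 ± 33.9 with butyrate and 921 ± 18.62 with both agents, and *Ern1* made up most of this sum. The 4 transcription factors stood at 89.0% of control with IL-1β, 112% with butyrate and 103% with both agents, and the 4 ATF4 and CHOP targets at 88.0%, 106% and 97.1%. In both of these groups the 4 IL-1β libraries and the 4 butyrate libraries did not overlap.

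**Figure D3:**
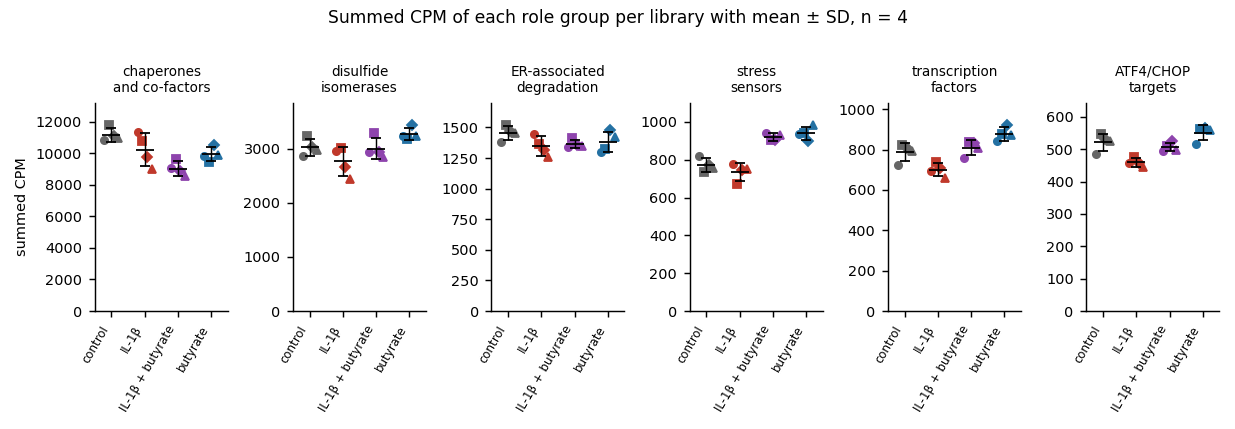
Summed CPM (y axis, from 0) of the genes of 6 role groups in each library, by condition (x axis), with black bars for the mean ± SD of 4 libraries. The chaperone sum is lowest with IL-1β + butyrate, the sensor sum is higher in both butyrate conditions, and the sums of transcription factors and ATF4/CHOP targets are lowest with IL-1β.

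Whether the effect of one agent depended on the other was tested as the interaction, that is, the butyrate effect with IL-1β minus the butyrate effect without it. None of the 36 genes was called, by edgeR or by DESeq2, against 0.0968% of all genes tested (18 genes by edgeR, 1362 at an unadjusted p below 0.05, and 52 by DESeq2). The largest values among the 36 were 0.43 ± 0.56 for *Nupr1* (adjusted p = 0.96) and 0.35 ± 0.13 for *Trib3* (adjusted p = 0.43). *Trib3* was called without control replicate 1 (adjusted p = 0.0094). A missed threshold does not show that the effects were equal, and the 95% confidence interval of the interaction was −0.17 to 0.16 for *Ern1* and −0.58 to 0.81 for *Derl3*.

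The butyrate effect without IL-1β and the butyrate effect with IL-1β come from separate libraries. Across the 36 genes they had Pearson's r = 0.968 and Spearman's rho = 0.936, and 34 genes (94.4%) had the same sign in both. Over all genes tested the values were r = 0.737, rho = 0.689 and 78.8%. The IL-1β effects without and with butyrate gave r = 0.766, rho = 0.727 and the same sign in 29 genes (80.6%). Over all genes they gave a higher r of 0.846, a lower rho of 0.658 and the same sign in 76.3%. These are descriptions across genes that share libraries within each axis, and genes are not independent replicates. The 36 genes and all genes tested were not matched for expression level, and the part of expression level in these differences was not tested. *Derl3* and *Nupr1* lie far from the other genes on the butyrate axes.

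**Figure D4:**
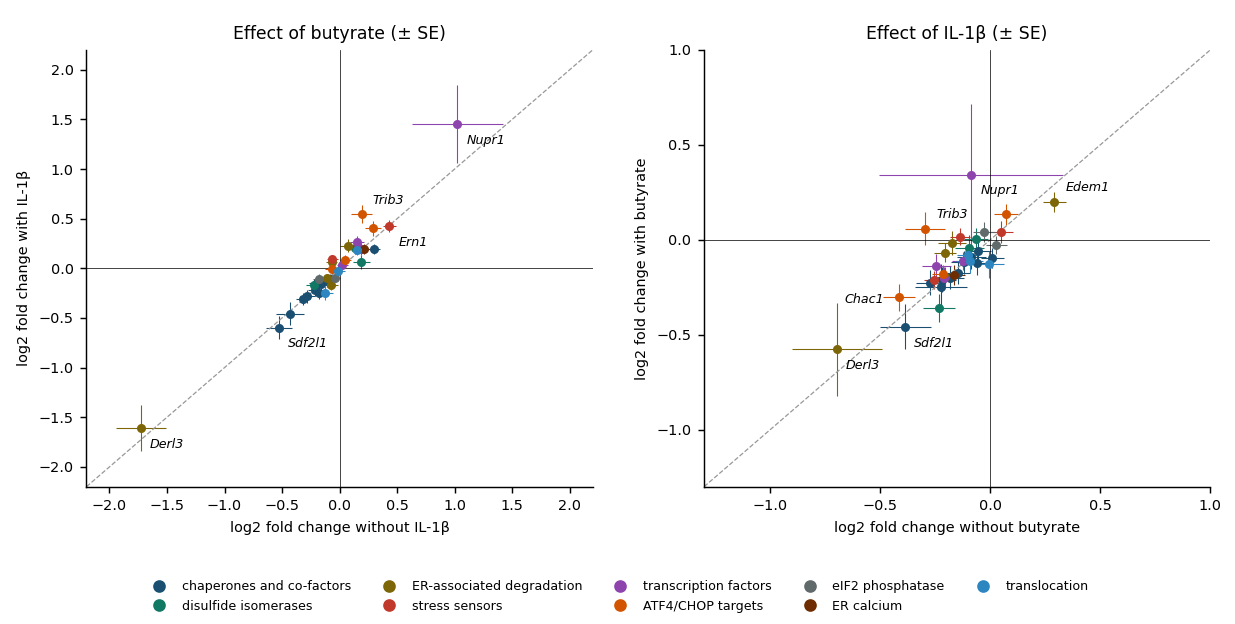
Log2 fold change of each gene without (x axis) and with (y axis) the other agent, for butyrate (left) and IL-1β (right), with ± SE and the line of equality dashed. Butyrate effects lie along the line from *Derl3* at the lower left to *Nupr1* at the upper right, and IL-1β effects are mostly small and negative.

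The genes with an ERSE or ERSE-II, whose letters are shown above, were compared by description with those that had neither. With both agents against control, 8 of the 11 genes with an element were lower and 1 was higher (median log2 fold change −0.28), against 4 lower and 1 higher of the 20 without (median −0.013). With butyrate alone the counts were 3 lower and 1 higher of 11 (median −0.16) against 1 lower and 3 higher of 20 (median 0.036). With IL-1β alone they were 1 lower and 0 higher of 11 (median −0.15) against 6 lower and 1 higher of 20 (median −0.13). Of all genes tested, 14.8% were lower and 15.8% higher with both agents, 11.4% and 8.53% with butyrate, and 6.59% and 11.2% with IL-1β. *Canx*, with the element 145 bases before its start site, rose with butyrate, and *Sdf2l1*, with no match in its window, fell. The element and the role overlap: *Hspa5*, *Hsp90b1*, *Calr*, *Canx*, *Dnajc3*, *Creld2* and *Dnajb11* hold an element and belong to the chaperone group. All 11 genes of that group were called with both agents, and *Dnajb9* and *Sdf2l1*, with no match, were among those that fell. The part of role in the difference was not tested.

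**Figure D5:**
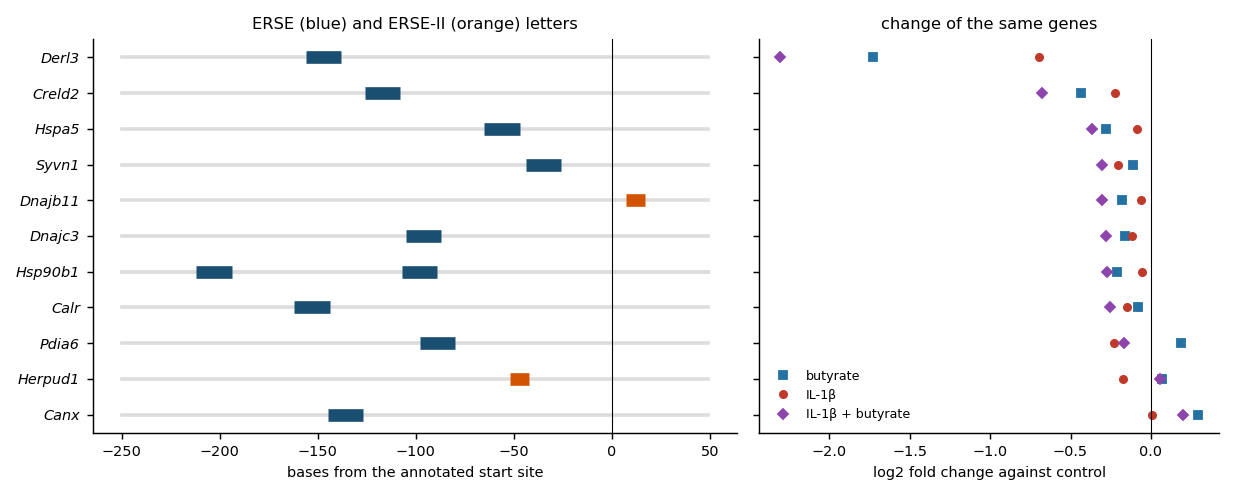
Left, position of the ERSE (blue) and ERSE-II (orange) letters in bases from the annotated start site (x axis) in the promoter of each gene that held one (y axis, ordered by change with both agents); right, log2 fold change of the same genes against control with IL-1β, butyrate or both. With both agents 9 of the 11 genes have values below 0, and only *Herpud1* and *Canx* lie above.

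Other genes of the same pathways were read from 8 lists. Of 32 genes of amino acid synthesis, transport and tRNA charging regulated by ATF4, 18 fell (56.2%) and 1 rose with IL-1β, against 6.59% and 11.2% of all genes tested, among those that fell *Phgdh* (−0.65 ± 0.076, adjusted p = 7.5e-07), *Psat1* (−0.57 ± 0.068, adjusted p = 5.2e-07) and *Slc7a11* (−0.54 ± 0.088, adjusted p = 6.5e-05). When butyrate was added to IL-1β, 7 of the 32 rose (21.9%) and 4 fell (12.5%), against 8.41% and 11.1% of all genes, led by the transporters *Slc7a5* (0.57 ± 0.042, adjusted p = 1.1e-10) and *Slc7a11* (0.49 ± 0.088, adjusted p = 0.0002), while the synthetase *Wars* fell by 0.46 ± 0.060 (adjusted p = 1.7e-06). With both agents against control, 14 of the 32 were lower (43.8%) and 4 higher (12.5%), against 14.8% and 15.8% of all genes. Among the lower was the serine synthesis gene *Phgdh* (−0.93 ± 0.077, adjusted p = 1.9e-09). When IL-1β was added to butyrate, 11 were lower (34.4%) and 2 higher (6.25%), against 4.86% and 9.92% of all genes. With butyrate alone 6 were lower (18.8%) and 2 higher (6.25%), against 11.4% and 8.53% of all genes.

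Of 15 genes of oxidative folding, 4 rose (26.7%) and 2 fell (13.3%) with IL-1β, against 11.2% and 6.59% of all genes. With butyrate 1 of the 15 rose (6.67%) and 6 fell (40.0%), against 8.53% and 11.4% of all genes. With both agents 4 rose (26.7%) and 5 fell (33.3%), against 15.8% and 14.8% of all genes. *Ero1lb*, the oxidase that recharges disulfide isomerases in beta cells, had the largest change in that list, with −0.78 ± 0.095 with IL-1β (adjusted p = 6.9e-06), 0.43 ± 0.095 with butyrate (adjusted p = 0.0023), −1.16 ± 0.096 for IL-1β added to butyrate (adjusted p = 7.9e-08) and −0.73 ± 0.095 with both agents (adjusted p = 8.7e-06). *Prdx4*, an ER peroxidase, rose by 0.53 ± 0.069 with IL-1β (adjusted p = 7.7e-07). Of the 17 other translocon and signal peptidase genes, 9 fell (52.9%) and 1 rose (5.88%) with both agents, against 14.8% and 15.8% of all genes, led by *Spcs1* (−0.47 ± 0.070, adjusted p = 1.1e-05) and *Ssr4* (−0.41 ± 0.074, adjusted p = 0.00013). Of 20 other degradation genes, 9 fell (45.0%) and 0 rose with both agents, against the same shares of all genes, among them *Aup1* (−0.31 ± 0.050, adjusted p = 1.1e-05) and *Vcp* (−0.28 ± 0.054, adjusted p = 9.5e-05), the ATPase that extracts substrates from the ER.

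Of 14 genes of N-glycosylation and the lectin cycle, 2 rose (14.3%) and 1 fell (7.14%) with both agents, below the 15.8% and 14.8% of all genes. *Alg5*, the 1 that fell, was lower by 0.42 ± 0.067 on the log2 scale (adjusted p = 1.4e-05). Of 19 genes of ER export, 5 fell (26.3%) and 0 rose with IL-1β, against 6.59% and 11.2% of all genes, and *Sec16b*, an organiser of ER exit sites, fell by 1.01 ± 0.081 on the log2 scale with both agents (adjusted p = 6.1e-09). Of 15 chaperones of the cytosol and mitochondria, 4 rose (26.7%) and 2 fell (13.3%) with butyrate, against 8.53% and 11.4% of all genes. The small heat shock protein gene *Hspb1* rose by 2.10 ± 0.23 with butyrate (adjusted p = 1.1e-07) and by 3.09 ± 0.21 with both agents (adjusted p = 5.8e-12), from a low level of 0.51–1.07 CPM in control. *Hspa1b*, whose sequence is nearly identical to that of *Hspa1a* so that their counts are uncertain, rose by 1.11 ± 0.17 with butyrate (adjusted p = 1.5e-05). Of 3 other eIF2α kinases, *Eif2ak2* (PKR) rose by 0.29 ± 0.066 with IL-1β (adjusted p = 0.0014) and fell by 0.24 ± 0.068 with butyrate (adjusted p = 0.0089), calls lost in 1 and 9 of the 23 alternatives. None of the genes of these 8 lists was called in the interaction.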

How the data were processed

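Islet RNA from 16 libraries (4 conditions, 4 independent experiments each) was sequenced by the authors as single-end reads, mapped to GRCm38.p5 (mm10) with STAR 2.5.3a per the submitters' processing notes, and deposited as counts per gene, whole numbers without normalization. The annotation release and strand setting of the counting were not given in the sources used here. The 37 symbols and the other gene lists were chosen with earlier results of these data known, so no list count is independent evidence. Symbols and positions were taken from GENCODE M21 (52489 of 52636 identifiers matched).

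The counts were filtered (filterByExpr, leaving 18587 genes), TMM-scaled and fitted in edgeR 4.0.16 (R 4.3.3) with all 16 libraries and no covariate, after the fit had been tested on simulated data. A call needed an adjusted p below 0.01 in the quasi-likelihood test with Benjamini-Hochberg adjustment. DESeq2 1.42.0 was an alternative, beside 3 other scalings, no filter, a 0.05 threshold, a replicate block, fits of only the conditions compared and leaving out each library. Totals were 18635943–25955943 counts. Replicates of a condition differed by more than counting noise (chi-square per gene 1.72–13.5), so none was a duplicate. Deviations from the condition means correlated positively between same-numbered libraries (r 0.053–0.397 over 24 pairs), against a median r of −0.04 for other pairs. Neither the labels nor the study say that the numbers pair libraries, so the replicate block was kept as an alternative only. Named genes were those called in 1 or more comparisons, the sensors, *Xbp1*, *Atf4* and *Ddit3*, with per-library values for these and the leading genes of each role. From each of 8 other pathway lists, the genes named came from the 3 with the largest change per comparison among those called with an average log2 CPM of at least 1. Promoters are RefSeq's (GRCm38.p6).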

Additional observations from a re-analysis of the deposited data

Results flagged for a closer look

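In groups of 4 libraries, 9 of 144 gene and condition groups had a highest or lowest library that stood apart from the other 3 by Dixon's 95% criterion, and chance flags about 1 in 20 groups. In control, replicate 2 was high for *Hsp90b1* (1513 CPM against 1371–1392 in the other 3), *Dnajb11* (224.2 CPM) and *Pdia4* (423.0 CPM), and replicate 1 was low for *Derl3* (53.48 CPM). With IL-1β, *Syvn1* was high in replicate 1 (176.9 CPM). With IL-1β + butyrate, *Manf* was high in replicate 2 (339.1 CPM) and *Chac1* in replicate 3 (99.24 CPM). With butyrate, *Pdia4* was high in replicate 3 (354.6 CPM) and *Ssr1* was low in replicate 2 (577.0 CPM).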

How the results depend on the processing

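Of 57 calls of the 36 genes, 27 held under every alternative and 30 were lost under 1 or more, and no change reversed its direction while called. The number of genes called in each comparison is given in the order IL-1β, butyrate, butyrate added to IL-1β, IL-1β added to butyrate, and both agents against control. It was 9, 9, 16, 7 and 16 in the reported fit. At an adjusted p below 0.05 it was 19 with IL-1β, 18 with butyrate and 13 for IL-1β added to butyrate. DESeq2 gave 11 for IL-1β added to butyrate. Upper-quartile scaling gave 16 with IL-1β and 13 for IL-1β added to butyrate, and library size alone gave 5 with IL-1β, 15 with butyrate and 2 for IL-1β added to butyrate. Without the filter on low counts there were 14 with IL-1β and 16 with butyrate. Fits of only the conditions compared gave 16 with butyrate and 12 for IL-1β added to butyrate. A fit with a replicate block gave 15 with IL-1β, 17 with butyrate, 21 for butyrate added to IL-1β, 11 for IL-1β added to butyrate, 22 with both agents and 0 in the interaction. With the block *Nupr1* passed the threshold with butyrate (adjusted p = 3.4e-05), for butyrate added to IL-1β (1.7e-06) and with both agents (1.3e-06). The labels do not say that the numbers pair libraries: 17 of 24 same-numbered pairs correlated above 0.1 and 14 of 16 libraries correlated best with their own number, a hint from the data and not the design. Leaving out 1 library gave 3–12, 5–15, 9–18, 3–12 and 14–18 genes, and 0–1 in the interaction. The cause of these shifts was not tested. With changes of this size, mostly below 0.5 on the log2 scale, 4 libraries per condition limit which genes pass the threshold.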
